A study of Gallus gallus with 60 samples.

Results

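The genes described here are 42 genes of the DNA replication machinery in the chicken (Gallus gallus) utricle, the vestibular sensory organ in which hair cells are replaced after damage. They were chosen by gene name, from the 17684 rows of the deposited table, with a level of at least 1 RPKM (a read density that allows for both transcript length and library depth) in at least 2 libraries. All 42 rows whose name matched had that level, and 39 of them belong to 8 groups of the machinery. The other 3, MCM3AP, MCM8 and POLDIP3, matched by name only. Treated utricles had been exposed after dissection for 24 h to streptomycin, an antibiotic of the aminoglycoside class that is toxic to hair cells, followed by recovery; control utricles carried the same time labels. Both arms were sampled at 11 labelled times, with 4 biological samples per arm at 24 h, 3 at 72, 96, 120 and 168 h, and 2 at 0, 48, 54, 60, 66 and 144 h. Strain, age, the starting point of the hours and the number of utricles in a sample are absent from the labels. The p-values below therefore cover the variation among the deposited samples and nothing wider.

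A cell copies its DNA once per division. In the G1 phase the origin recognition complex (ORC) and CDT1 load the MCM helicase onto replication origins; at the start of S phase the CDC7 kinase, MCM10, CDC45 and the GINS complex turn it into a moving replisome. Polymerases then extend primers behind it, held to the template by the sliding clamp PCNA, while RPA covers single-stranded DNA and ribonucleotide reductase supplies deoxynucleotides. In the bird utricle supporting cells re-enter the cell cycle after hair cell loss, and transcripts of the MCM proteins, PCNA and RRM2 are widely used marks of cells in or near S phase.

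Depth was 1486991 to 40331879 alignments per library, with a median of 21154441. It was below 5000000 in 7 of 60 libraries. At 24 h these were treated replicate 1 and the controls numbered 1 and 2; the other 4 were all numbered 1, from the treated arm at 96 h, the control arm at 120 h and both arms at 168 h. The 10 hair cell markers were all detected. Their summed level was 485 to 2324 RPKM in control samples and 213 to 685 RPKM in treated samples, and 9 of the 10 fell over the 11 times, as 12.5% of all rows did. ATOH1, the transcription factor that starts hair cell formation, was the tenth and rose (0.66 ± 0.21 on the log2 scale defined below, limma adjusted p = 0.0161). Already at 0 h 8 of the 10 hair cell markers were lower, as 1.98% of all rows were. Their summed level at 0 h was 1815 to 2031 RPKM in control and 279 to 385 RPKM in treated samples. RPKM values are shares of a library, so that fewer cells of a type and less RNA per cell cannot be told apart in these bulk samples.

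Averaged over the 11 times, 32 of the 42 genes were higher in treated than in control utricles and none was lower (limma, Benjamini-Hochberg adjusted p under 0.05 over all 13862 rows tested). Of all rows, 18.5% were called higher and 12.5% lower. The median difference of the 42 genes was 0.44 on the log2(RPKM + 0.5) scale, on which all differences below are given as treated minus control, against 0.06 over all rows. The largest mean differences were those of RRM2 (1.41 ± 0.14, SE), MCM5 (1.25 ± 0.12), MCM6 (1.24 ± 0.07), CDC45 (1.16 ± 0.09) and GINS1 (1.12 ± 0.14). The 10 genes not called were RFC1, RFC4, DBF4, DBF4B, GMNN, ORC2, POLDIP3, POLD3, POLE3 and RPA3, with mean differences from 0.04 (POLD3) to 0.21 (POLE3). In a fit with the pair of same-numbered samples as a block, 5 of these were called, and 25.7% of all rows were higher: POLE3 (adjusted p = 0.00166), GMNN (0.0242), DBF4 (0.0294), RFC1 (0.0411) and RFC4 (0.0479).

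At 0 h none of the 42 genes was called, against 0.577% of all rows higher. By unadjusted p under 0.05 there were 2 genes, a measure that was not counted over all rows. In the blocked fit 1 gene, MCM3AP, was called, with 2.38% of all rows. At 24 h 28 genes were higher, against 7.5% of all rows, with a median difference of 0.82 against 0.13 over all rows. No gene of the set was called lower at any time. The share of all rows called lower was 1.98% at 0 h, 5.4% at 24 h, 2.41% at 48 h, 1.8% at 54 h, 2.94% at 60 h, 1.83% at 66 h, 2.89% at 72 h, 3.3% at 96 h, 1.7% at 120 h, 0.498% at 144 h and 0.808% at 168 h. At 24 h every treated sample lay above every control sample for 25 genes, which was so for 8.69% of all rows. Without the libraries below 5000000 alignments, which takes away 3 of the 8 samples of 24 h, 15 genes were called at that time. Of all 13862 rows 236 were higher at 24 h in that setting, against 1039 with every library. Of the 15 genes 14 were among the 28, and RRM2 was gained. The 14 lost were CDT1, FEN1, GINS1, LIG1, MCM4, ORC2, ORC4, ORC6, POLE, RFC1, RFC3, RFC4, RPA1 and RPA2.

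From 48 to 72 h the mean over the 5 times gave 30 genes higher, against 9.13% of all rows (10.2% lower), with a median of 0.76 against 0.04. Singly, 16 genes were higher at 48 h (0.974% of all rows), 10 at 54 h (0.786%), 17 at 60 h (1.26%), 10 at 66 h (1.02%) and 17 at 72 h (1.41%). With 2 samples per arm these counts leaned on single samples. At 48 h 1 gene was left without treated replicate 1, 8 without control replicate 1 and 4 without control replicate 2. At 54 h 5 were left without replicate 1 of either arm and 2 without replicate 2 of either arm. At 60 h the count fell to 4 without treated replicate 2, 8 without control replicate 2 and 11 without control replicate 3. At 66 h it fell to 4 and 5 without treated replicates 1 and 2 and to 2 without control replicate 2, and it was 17 in the blocked fit, with 1.93% of all rows. At 72 h it was 10 without treated replicate 1 and 11 without control replicate 1. At 72 h every treated sample lay above every control sample for 29 genes, which was so for 10.7% of all rows.

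Fewer genes were called at the later times. Over 96 to 168 h 14 genes were higher, against 9.65% of all rows (7.11% lower); their number was 9 without treated replicate 1 of 144 h. At 96 h 10 genes were higher (1.85% of all rows), 4 without control replicate 3 and 16 in the blocked fit, with 4.49% of all rows. At 120 h 3 were higher, MCM6, CDC45 and RRM2 (0.959%), of which MCM6 alone was called when control replicate 2, treated replicate 2 or control replicate 3 was left out. At 144 h none was called (0.0216% of all rows), and 1 had an unadjusted p under 0.05, which was not counted over all rows. At 168 h MCM6 was the 1 gene called (0.606% of all rows); it was not called without treated replicate 1, treated replicate 3 or control replicate 3, nor without the libraries below 5000000 alignments.

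**Figure D1:**
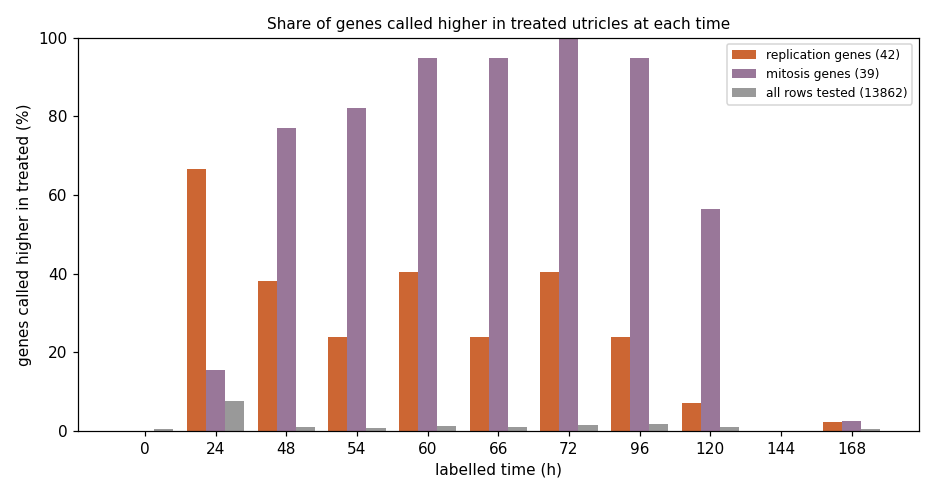
Share of genes called higher in treated utricles at each labelled time (y axis, percent of genes tested; x axis, hours), for the 42 replication genes, 39 mitosis genes and all 13862 rows tested. The replication genes stand highest at 24 h, with 28 of 42, and the mitosis genes at 72 h, with 39 of 39. All rows stand highest at 24 h too (7.5%), where each arm has 4 samples against 2 or 3 at other times. The median difference of the replication genes was 0.82 at 24 h, 0.93 at 48 h and 0.89 at 60 h.

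Of the 5 MCM helicase genes, MCM2 to MCM6, which encode subunits of the ring that unwinds DNA, all rose at 24 h and over 48 to 72 h, and 3 (MCM3, MCM5 and MCM6) were higher over 96 to 168 h. The MCM3 call of the last window ended without treated replicate 1 or control replicate 2 of 144 h, control replicate 3 of 120 h or control replicate 3 of 96 h. MCM2 was at 13.1, 7.84, 11.6 and 7.88 RPKM in the control samples of 24 h and at 32.4, 29.9, 30.8 and 27.2 RPKM in the treated samples. The arms did not overlap, and the difference was 1.56 ± 0.19 (2.95-fold, a ratio of RPKM + 0.5 as for all folds below, limma adjusted p = 6.36e-08). At 48 h MCM2 was at 9.53 and 7.24 RPKM in control and at 32.6 and 18.2 RPKM in treated samples, at 96 h at 5.58, 6.69 and 6.82 against 9.43, 10.04 and 10.09 RPKM, and at 168 h at 4.98, 5.83 and 5.10 against 4.04, 5.76 and 4.48 RPKM. The arms were apart at 24, 48 and 96 h and overlapped at 168 h. Over 48 to 72 h the difference was 1.25 ± 0.11 (adjusted p = 1.96e-11) and over 96 to 168 h 0.21 ± 0.11 (adjusted p = 0.24). The fall of the MCM2 effect between these windows was itself called (−1.04 ± 0.16, limma adjusted p = 0.000579).

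MCM6 was called at 9 of the 11 times, the most of the 42 genes. Its control levels at 24 h were 24.7, 19.9, 25.3 and 20.2 RPKM and its treated levels 58.8, 45.2, 57.5 and 55.99 RPKM. In the 11 samples per arm of 48 to 72 h it had a lowest, median and highest level of 10.65, 19.8 and 26.2 RPKM in control and 42.8, 53.8 and 78.7 RPKM in treated utricles. At 168 h the controls were at 13.2, 13.4 and 10.1 RPKM and the treated samples at 21.1, 19.4 and 30.4 RPKM, still without overlap. The difference was 1.25 ± 0.19 at 24 h, 1.53 ± 0.12 over 48 to 72 h (2.89-fold), 1.19 ± 0.12 over 96 to 168 h (limma adjusted p = 3.04e-10) and 0.91 ± 0.22 at 168 h (adjusted p = 0.0226). The change between the later windows, −0.34 ± 0.16, was not called (adjusted p = 0.485).

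MCM5 showed the greatest difference of the helicase genes over 48 to 72 h. At 24 h it was at 26.7, 12.04, 21.9 and 9.73 RPKM in control and at 60.9, 43.5, 42.5 and 37.1 RPKM in treated samples. Over 48 to 72 h control samples ran from 3.16 to 13.8 RPKM with a median of 5.27, and treated samples from 13.7 to 44.6 RPKM with a median of 24.3. The arms overlapped narrowly there, and the difference was 1.78 ± 0.19 (3.43-fold, limma adjusted p = 1.76e-09). MCM3 rose by 1.46 ± 0.27 at 24 h and 1.67 ± 0.16 over 48 to 72 h, and MCM4 by 0.86 ± 0.25 and 0.99 ± 0.15. The MCM4 call at 24 h was lost without treated replicate 1, control replicate 2 or control replicate 4 of that time.

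**Figure D2:**
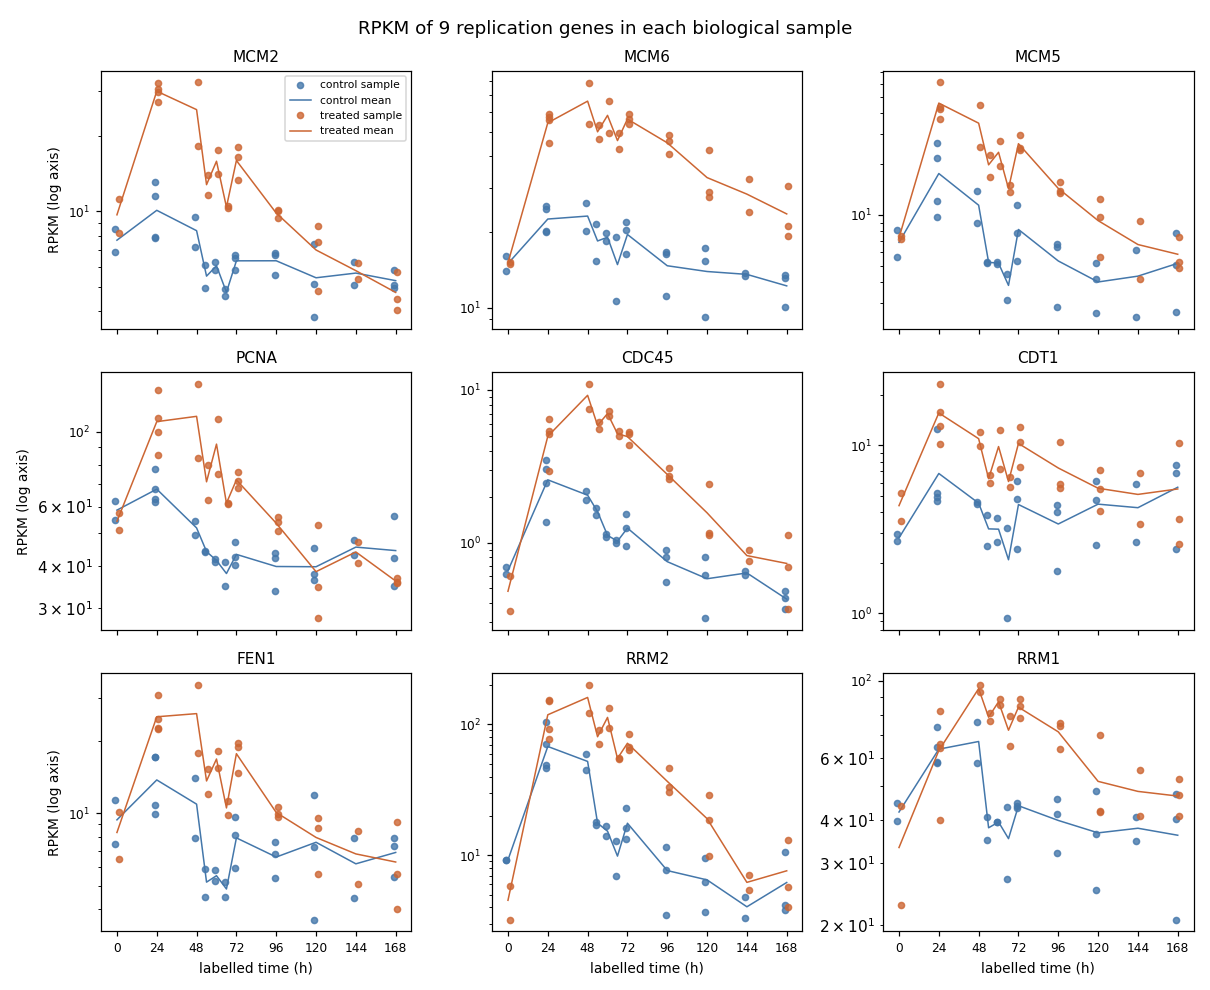
RPKM on a log axis against labelled time (hours) for 9 genes, with 1 point per biological sample and lines through the arithmetic mean of each arm. MCM6 stays apart between arms to 168 h, where treated samples are at 19.4 to 30.4 RPKM and controls at 10.1 to 13.4 RPKM; RRM2 and CDC45 rise at 24 h in controls as well, and RRM1 overlaps at 24 h.

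The 8 licensing genes encode the origin recognition complex (ORC1 to ORC6), the loading factor CDT1 and its inhibitor geminin (GMNN). At 24 h 5 of 8 rose (CDT1, ORC1, ORC2, ORC4 and ORC6), over 48 to 72 h 5 (CDT1, ORC1, ORC4, ORC5 and ORC6, of which ORC5 lost its call when any of 6 single samples was left out), and over 96 to 168 h ORC6 alone (0.41 ± 0.12), whose call was lost without treated replicate 2 of 120 h or treated replicate 1 of 144 h. CDT1 was at 5.23, 4.89, 12.4 and 4.63 RPKM in controls of 24 h and at 23.2, 15.9, 12.9 and 10.2 RPKM in treated samples. The arms overlapped through control replicate 3, which stood far above the other controls. The difference was 1.19 ± 0.38 (limma adjusted p = 0.0337), and 6 of the 8 samples of that time each ended the call when left out. Over 48 to 72 h it was 1.25 ± 0.23 (adjusted p = 8.56e-05), and that call held with each sample left out.

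ORC1, the ORC subunit whose level varies over the cell cycle in mammals, was scarce, at 0 to 0.584 RPKM in controls and 0.962 to 2.06 RPKM in treated samples of 24 h. At these levels the added 0.5 RPKM understates a fold. It rose by 1.25 ± 0.23 at 24 h (limma adjusted p = 0.000199) and 0.98 ± 0.14 over 48 to 72 h. No control sample of any time exceeded 0.584 RPKM, so ORC1 passed the filter of 1 RPKM through treated samples only. Its calls as higher, which the counts of genes include, are therefore not independent of that filter. ORC2 rose at 24 h (0.76 ± 0.19, adjusted p = 0.00454), and its value over 48 to 72 h was 0.08 ± 0.11 (adjusted p = 0.707). This drop of 0.68 ± 0.22 between 24 h and 48 to 72 h had an adjusted p of 0.0926, and of 0.0294 in the blocked fit. ORC3 was called over the 11 times (0.21 ± 0.08) and, in the blocked fit, over 96 to 168 h. The first call was lost under both other scalings and without the libraries below 5000000 alignments, and also without treated replicate 1 or control replicate 2 of 48 h or treated replicate 1 of 66 h. The ORC4 calls sat at the threshold at 24 h (adjusted p = 0.0486) and over 48 to 72 h (adjusted p = 0.0419), and ended when any of 40 and 15 single samples, respectively, was left out. Trimmed-mean scaling ended both calls. The ORC4 call over the 11 times was lost under trimmed-mean and quantile scaling. GMNN missed the threshold at 24 h (0.59 ± 0.21, adjusted p = 0.0535) and over 48 to 72 h (0.34 ± 0.13, adjusted p = 0.0534), and passed it in the blocked fit at both (0.0202 and 0.0213).

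Of the 7 firing genes, which encode parts of the switch from loaded to moving helicase, 4 rose in each window tested. CDC45, CDC7, GINS1 and MCM10 were higher at 24 h and in both later windows. Over 96 to 168 h the GINS1 call ended without the libraries below 5000000 alignments (limma adjusted p = 0.0572) and the MCM10 call without control replicate 1 of 144 h. GINS3 was called over 48 to 72 h (0.36 ± 0.11) and over 96 to 168 h (0.30 ± 0.11), the latter lost when any of 33 single samples was left out. DBF4 and DBF4B, which encode activating subunits of the CDC7 kinase, were called in no window or time of the unblocked fit. DBF4B was called over 48 to 72 h under quantile normalization, and over 48 to 72 h and the 11 times without the libraries below 5000000 alignments. CDC7 itself rose by 1.70 ± 0.25 at 24 h (limma adjusted p = 4.14e-06), a difference that the added 0.5 RPKM understates at its low levels. Controls of 24 h held 0.294 to 0.774 RPKM of CDC7 and treated samples 2.33 to 3.31 RPKM. The highest CDC7 control of 48 to 72 h reached 1.77 RPKM, and no control of another time exceeded 0.774 RPKM. CDC7 thus passed the filter of 1 RPKM in 2 libraries largely through treated samples. Its calls as higher, like those of ORC1, are not independent of that filter. GINS1 was at 0.987 to 4.07 RPKM in controls and 6.80 to 8.27 RPKM in treated samples of 24 h, a difference of 1.67 ± 0.35 (adjusted p = 0.000927). DBF4B was at 1.33 to 3.63 RPKM in controls and 0 to 2.52 RPKM in treated samples of 24 h (−0.74 ± 0.34, adjusted p = 0.153; 0.24 without the libraries below 5000000 alignments).

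CDC45, which travels with the helicase, had the largest difference of the firing genes over 48 to 72 h. Controls held 0.618 and 0.692 RPKM at 0 h and 3.49, 3.01, 1.36 and 2.45 RPKM at 24 h. Treated samples held 0.356 and 0.603 RPKM at 0 h, 5.36, 5.17, 2.94 and 6.42 RPKM at 24 h, and 11.0 and 7.47 RPKM at 48 h, when controls were at 1.91 and 2.18 RPKM. Both arms were thus higher at 24 h than at 0 h, and only at 24 h did they overlap among the times from 24 to 72 h. The difference was 0.84 ± 0.22 at 24 h (limma adjusted p = 0.00873, lost without control replicate 3), 1.86 ± 0.14 over 48 to 72 h (3.62-fold, adjusted p = 4.41e-14) and 0.73 ± 0.14 over 96 to 168 h (adjusted p = 0.000151). At 120 h, with 0.803, 0.616 and 0.318 RPKM in controls and 1.16, 2.42 and 1.12 RPKM in treated samples, it was 0.91 ± 0.26 (adjusted p = 0.0421). That call ended without control replicate 2, treated replicate 2 or control replicate 3 of 120 h.

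**Figure D3:**
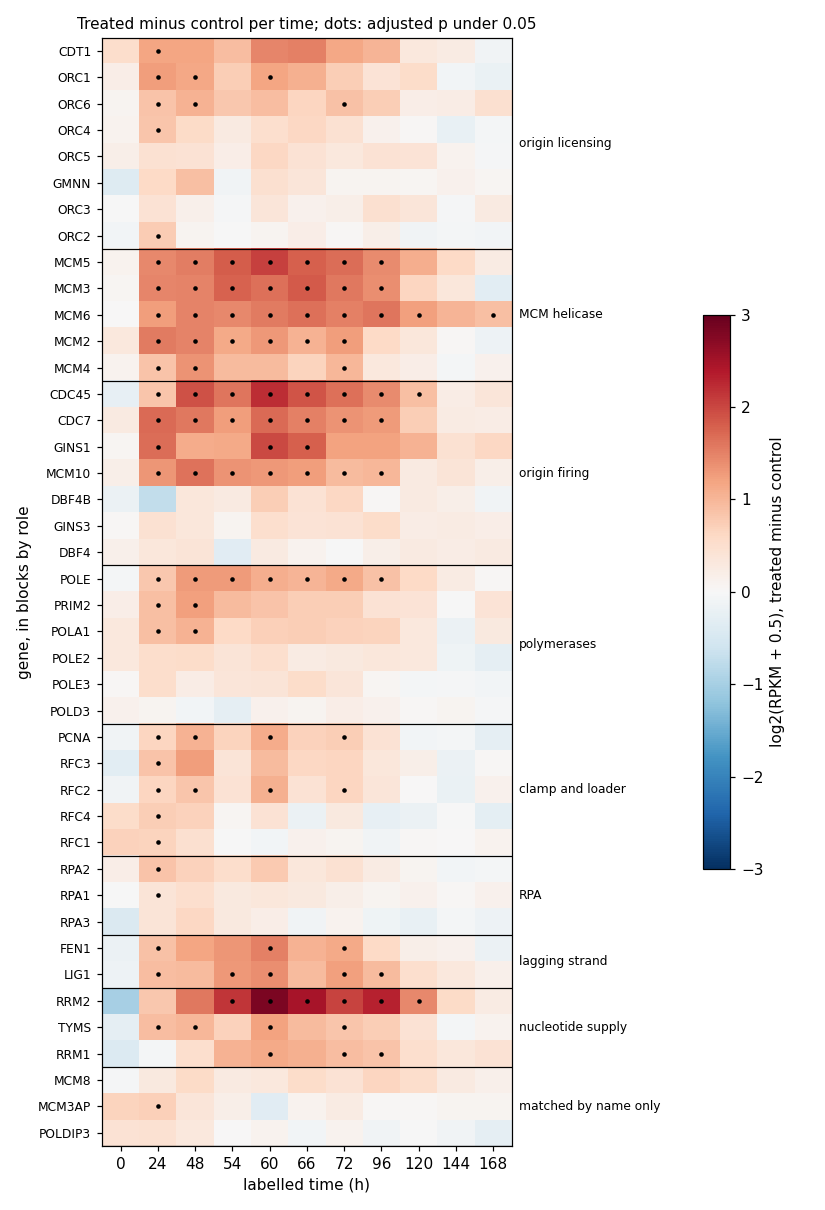
Difference between arms (colour, log2(RPKM + 0.5), treated minus control, scale from −3 to 3) for the 42 genes in rows, in blocks by role, at the 11 labelled times in columns; dots mark limma adjusted p under 0.05. Dots fill the 24 h column for 28 genes, the 5 MCM helicase genes carry them at 48 and 72 h too, and the highest value is that of RRM2 at 60 h (2.83).

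The 6 polymerase and primase genes included 4 that rose over 48 to 72 h. POLE, the catalytic subunit of the leading-strand polymerase, was at 4.33, 2.08, 3.73 and 2.196 RPKM in controls and 6.92, 5.63, 4.61 and 5.43 RPKM in treated samples of 24 h. At 72 h it was at 1.39, 1.94 and 2.08 RPKM against 4.85, 4.72 and 4.02 RPKM. Treated samples lay above controls at both times, by 0.82 ± 0.21 at 24 h (limma adjusted p = 0.00725), and by 1.16 ± 0.13 over 48 to 72 h (adjusted p = 2.71e-09). Over 96 to 168 h POLE was higher by 0.44 ± 0.13 (adjusted p = 0.014), lost without treated replicate 1 or control replicate 2 of 144 h. POLA1, the catalytic subunit of the priming polymerase, and PRIM2, the large primase subunit, rose by 0.90 ± 0.18 and 0.89 ± 0.22 at 24 h and by 0.75 ± 0.11 and 0.91 ± 0.14 over 48 to 72 h. Neither was called over 96 to 168 h, and both were in the blocked fit (adjusted p = 0.0274 and 0.0341).

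POLE2, the second subunit of the POLE enzyme, rose over 48 to 72 h (0.39 ± 0.13, limma adjusted p = 0.0287), and any of 6 single samples ended that call. Trimmed-mean scaling ended it as well (limma adjusted p = 0.0745). POLE3, an accessory subunit that also serves in chromatin remodelling, was at 27.5 to 72.9 RPKM in controls and 54.5 to 86.6 RPKM in treated samples of 24 h. It was not called, but was in the blocked fit at 24 h (adjusted p = 0.00574) and over 48 to 72 h (0.00075). POLD3, an accessory subunit of the lagging-strand polymerase, had the smallest mean difference of the set. It ran from 11.9 to 19.2 RPKM over the 28 control samples and from 11.8 to 19.6 RPKM over the 28 treated samples, with medians of 13.9 and 14.6 RPKM. Its difference was 0.07 ± 0.14 at 24 h. In the later windows it was 0.01 ± 0.09 (48 to 72 h) and 0.05 ± 0.09 (96 to 168 h).

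PCNA, the sliding clamp, was among the most abundant members, with a median of 43.8 RPKM over control samples against 0.316 RPKM for ORC1, the lowest median. Controls of 24 h held 67.8, 77.5, 62.0 and 63.2 RPKM and treated samples 85.2, 133, 100 and 110 RPKM. At 96 h the controls were at 33.7, 42.2 and 43.7 RPKM and the treated samples at 50.8, 54.2 and 55.8 RPKM, and at 168 h at 56.2, 34.9 and 42.2 RPKM against 35.5, 35.8 and 37.0 RPKM. The arms were apart at 24 and 96 h and overlapped at 168 h. The difference was 0.65 ± 0.16 at 24 h (limma adjusted p = 0.00544), 0.85 ± 0.10 over 48 to 72 h (1.80-fold, adjusted p = 7.07e-09) and 0.01 ± 0.10 over 96 to 168 h (adjusted p = 0.981). The clamp loader, which opens PCNA and places it on DNA, had 4 genes in the set, RFC1 to RFC4, and no row was named RFC5. These 4 genes were called at 24 h (0.65 to 0.86). RFC2 and RFC3 were also called over 48 to 72 h (0.69 ± 0.09 and 0.77 ± 0.18), RFC1 and RFC4 were not (0.12 ± 0.13 and 0.26 ± 0.12), and no clamp or loader gene was called over 96 to 168 h. At 24 h RFC3 lost its call under each scaling tried, RFC1 under both, and 5 single samples each ended either call.

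RPA, the single-strand binding complex, is made of the products of RPA1, RPA2 and RPA3. RPA2 was at 14.95, 14.0, 16.9 and 13.8 RPKM in controls of 24 h and at 42.04, 23.1, 24.1 and 23.9 RPKM in treated samples. Treated replicate 1, a library below 5000000 alignments, stood far above the other treated samples, all of which exceeded every control. RPA2 rose by 0.86 ± 0.18 at 24 h (limma adjusted p = 0.00114; 0.096 without the libraries below 5000000 alignments) and by 0.56 ± 0.11 over 48 to 72 h, and its value over 96 to 168 h was 0.04 ± 0.11. RPA1 rose by 0.38 ± 0.12 at 24 h, a call that 4 single samples of that time each ended, and by 0.32 ± 0.07 over 48 to 72 h. RPA3 was called in no window or time.

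FEN1, the nuclease that trims Okazaki fragments, and LIG1, the ligase that joins them, both rose at 24 h and over 48 to 72 h. FEN1 was at 17.1, 10.8, 17.1 and 9.94 RPKM in controls of 24 h and at 31.0, 24.7, 22.6 and 22.3 RPKM in treated samples. At 72 h it was at 5.92, 9.67 and 8.12 RPKM against 18.8, 19.5 and 14.7 RPKM, and at 168 h at 5.45, 7.88 and 7.30 RPKM against 3.998, 9.22 and 5.62 RPKM. The arms were apart at 24 and 72 h and overlapped at 168 h. FEN1 rose by 0.88 ± 0.27 at 24 h (limma adjusted p = 0.0268, lost without treated replicate 1, control replicate 2 or control replicate 4) and by 1.24 ± 0.17 over 48 to 72 h (adjusted p = 1.7e-07). LIG1 rose by 0.92 ± 0.25 at 24 h, lost without control replicate 2, and by 1.16 ± 0.15 over 48 to 72 h. It stayed higher over 96 to 168 h (0.48 ± 0.15, adjusted p = 0.0247), while FEN1 had 0.18 ± 0.17 (adjusted p = 0.535); the LIG1 call was lost without treated replicate 1 of 96 h, without control replicate 3 of 120 h, and without either treated replicate 1 or control replicate 2 of 144 h.

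RRM1 and RRM2 encode the large and small subunits of ribonucleotide reductase, and TYMS encodes thymidylate synthase. TYMS rose at 24 h (0.92 ± 0.20, limma adjusted p = 0.00139), with 9.21 to 13.8 RPKM in controls and 19.5 to 23.4 RPKM in treated samples. RRM1 did not differ detectably there, at 58.4, 58.1, 73.9 and 64.6 RPKM in controls and 40.04, 66.1, 64.4 and 82.2 RPKM in treated samples (−0.05 ± 0.22, adjusted p = 0.916). By 72 h it stood at 43.2, 43.9 and 44.6 RPKM in controls and 85.0, 78.4 and 89.0 RPKM in treated samples. The arms overlapped at 24 h and were apart at 72 h, and the difference over 48 to 72 h was 0.94 ± 0.13 (1.91-fold, adjusted p = 7.17e-07).

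RRM2 had the largest difference of the 42 genes over 48 to 72 h. Controls held 9.28 and 9.16 RPKM at 0 h, 105, 71.1, 49.4 and 46.2 RPKM at 24 h, 59.2 and 45.2 RPKM at 48 h, and 13.4, 16.2 and 23.1 RPKM at 72 h. Treated samples held 3.22 and 5.84 RPKM at 0 h, 92.1, 151, 78.0 and 153 RPKM at 24 h, 200 and 122 RPKM at 48 h, and 84.2, 67.4 and 64.0 RPKM at 72 h. At 0 h the treated samples were the lower ones, at 24 h the arms overlapped, and from 48 h to 96 h every treated sample was above every control. The difference was 0.82 ± 0.35 at 24 h (limma adjusted p = 0.126; 0.0317 in the blocked fit), 2.21 ± 0.22 over 48 to 72 h (4.64-fold, adjusted p = 1.21e-10) and 1.15 ± 0.22 over 96 to 168 h (adjusted p = 0.000177). At 120 h, with 9.54, 6.26 and 3.66 RPKM against 18.6, 28.7 and 9.83 RPKM, it was 1.45 ± 0.41 (adjusted p = 0.0421), a call that treated replicates 1 and 2 and control replicates 2 and 3 each ended.

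Among the genes matched by name only, MCM8, a helicase of recombination repair, was at 5.77, 3.28, 3.62 and 5.02 RPKM in controls and 4.96, 5.41, 5.91 and 5.23 RPKM in treated samples of 24 h. The arms overlapped (0.28 ± 0.20, limma adjusted p = 0.387), and MCM8 was higher over 48 to 72 h (0.42 ± 0.12, adjusted p = 0.0114) and over 96 to 168 h (0.40 ± 0.12, adjusted p = 0.0203). MCM3AP, which acts in mRNA export, was higher at 24 h (0.71 ± 0.14) with 12.9 to 17.2 RPKM against 22.8 to 26.1 RPKM. POLDIP3 was not called at 24 h, but was in the blocked fit (adjusted p = 0.00182).

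The timing was then compared within genes. The 28 genes called at 24 h had their first call there, RRM2 was first called at 54 h and RRM1 at 60 h, and 12 genes were called at no single time. The last call was at 24 h for 9 genes (RFC1, RFC3, RFC4, CDT1, ORC2, ORC4, MCM3AP, RPA1 and RPA2), at 72 h for 7 (PCNA, RFC2, MCM2, MCM4, FEN1, ORC6 and TYMS) and at 96 h for 7 (CDC7, MCM10, MCM3, MCM5, LIG1, RRM1 and POLE). The blocked fit called more of all rows as well. At 24 h it called 33 genes, with 15.5% of all rows higher against 7.5% in the main fit. Over 48 to 72 h it called 32 genes, with 15.1% of all rows higher, and over 96 to 168 h 18, with 15.8%. In the blocked fit the first call moved to 24 h for RRM2 and to 54 h for RRM1, and 7 genes were called at no single time. GMNN, POLDIP3, POLE2 and POLE3 were called at 24 h there and MCM8 at 96 h. MCM3AP was first called at 0 h there. The last call moved there from 24 h to 48 h for RFC3 and RPA1, to 60 h for RPA2 and to 72 h for CDT1, and from 72 h to 96 h for MCM2, ORC6 and TYMS. It also moved to 72 h for PRIM2, to 96 h for GINS1 and POLA1 and to 120 h for MCM5. Without the libraries below 5000000 alignments RRM2 was likewise called at 24 h. A missed call at 1 time is no sign of equal levels, and the times differ in their number of samples. First and last calls were not counted over all rows. Of all rows 7.5% were higher at 24 h in the main fit, against 0.786% to 1.41% at the times from 48 to 72 h. CDT1, last called at 24 h in that fit, had its highest difference at 66 h (1.51). For 25 genes the treated sample of each same-numbered pair was the higher one in all 15 pairs of 24 to 72 h, which was so for 4.27% of all rows. The highest difference fell at 60 h for 13 genes, at 48 h for 11 and at 24 h for 8. This was not counted over all rows. The values at 48 and 60 h rest on 2 samples per arm, against 4 at 24 h, so these counts do not settle the time of the largest effect.

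Tests of the change itself named fewer genes. Between 0 and 24 h no gene's effect was called as changed (0.00721% of all rows higher and 0.0216% lower). By unadjusted p under 0.05 there were 21 genes, a measure that was not counted over all rows. MCM2 was called in the blocked fit, with 0.0433% of all rows higher (1.25 ± 0.32 in the main fit, limma blocked adjusted p = 0.0336). Between 24 h and 48 to 72 h the effect grew for CDC45 (1.02 ± 0.26, limma adjusted p = 0.0285) and RRM1 (0.99 ± 0.26, adjusted p = 0.033), against 0.721% of all rows, and shrank for MCM3AP (−0.60 ± 0.16, adjusted p = 0.0412), against 1.13%. The blocked fit called 6 genes, with 2.6% of all rows higher and 5.05% lower, adding RRM2 as larger (1.398 ± 0.42, blocked adjusted p = 0.0138) and ORC2 and POLDIP3 as smaller. None of the unblocked calls (CDC45, RRM1 and MCM3AP) was kept without the libraries below 5000000 alignments. In that setting 8 of all 13862 rows were called higher and 11 lower, against 100 and 157 with every library. Nor was any kept without treated replicate 1, control replicate 1 or treated replicate 3 of 24 h. A single gene was called without control replicate 2 or control replicate 3 of 24 h, treated replicate 1 or control replicate 2 of 66 h, or control replicate 2 of 54 h, and 6 genes without control replicate 4 of 24 h.

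**Figure D4:**
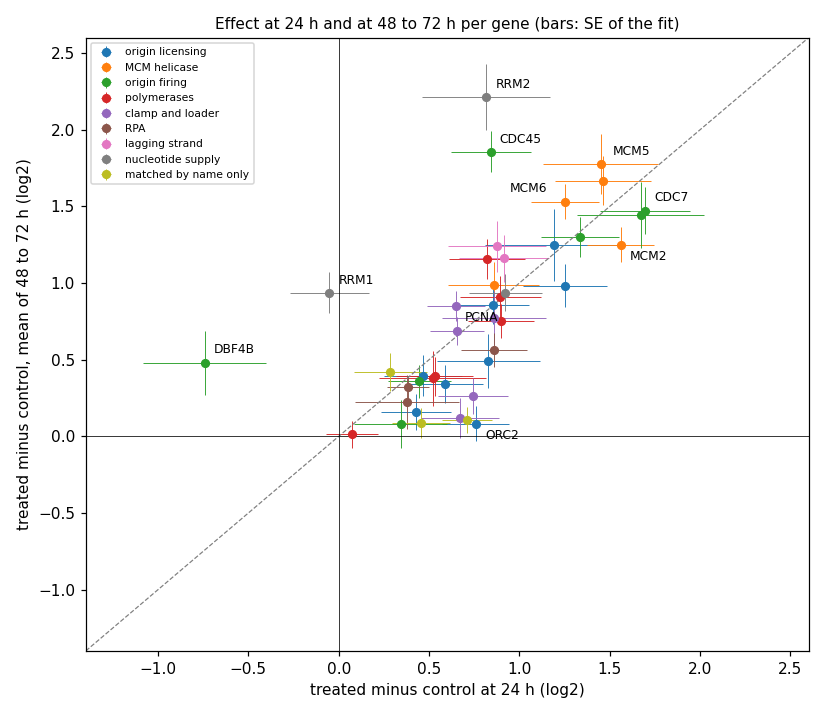
Difference between arms at 24 h (x axis) against the mean difference over 48 to 72 h (y axis), both log2(RPKM + 0.5), treated minus control, for the 42 genes coloured by role, with the SE of the fit as bars and a dashed line of equality. RRM1 (−0.05 and 0.94), RRM2 (0.82 and 2.21) and CDC45 (0.84 and 1.86) lie above the line, ORC2 (0.76 and 0.08) below it; both axes share the SE of a common model, and the 24 h values include 3 libraries below 5000000 alignments.

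Between 48 to 72 h and 96 to 168 h the effect shrank for 11 genes, against 0.592% of all rows, and grew for none, against 0.57%: CDC45 (−1.13 ± 0.19), MCM3 (−1.15 ± 0.23), FEN1 (−1.06 ± 0.23), MCM2 (−1.04 ± 0.16), PCNA (−0.85 ± 0.14), MCM10 (−0.85 ± 0.19), CDC7 (−0.85 ± 0.22), MCM4 (−0.84 ± 0.22), ORC1 (−0.81 ± 0.20), POLE (−0.71 ± 0.18) and RFC2 (−0.61 ± 0.13). Of these, CDC45, MCM3, FEN1, MCM2, PCNA, MCM10 and RFC2 kept their call with each sample left out. A pseudocount of 0.1 ended the calls of MCM10, MCM4, CDC7, POLE and ORC1. Those of MCM4, CDC7, POLE and ORC1 also ended when any of 32, 19, 19 and 14 single samples, respectively, was left out. The count fell to 7 without treated replicate 1 of 48 h, without control replicate 2 of 60 h, treated replicate 1 or control replicate 2 of 66 h, or control replicate 1 or treated replicate 2 of 144 h. In the blocked fit, where 1.54% of all rows shrank, it was 20, with LIG1, MCM5, ORC4, POLA1, POLE3, PRIM2, RPA2, RRM2 and TYMS added. An F test over all times found effects that differed between times for CDC45, MCM2, MCM3, PCNA and RRM2, which is 5 genes against 1.48% of all rows; it found 8 without treated replicate 2 of 120 h and 11 in the blocked fit, with 4.17% of all rows.

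Control utricles were not constant. An F test between control times called 12 of the 42 genes, against 6.46% of all rows: CDC45, CDC7, FEN1, GINS3, MCM2, MCM3, MCM5, MCM6, ORC3, PCNA, POLE and RRM2. The strongest were RRM2 (limma adjusted p = 3.35e-08) and CDC45 (4.85e-05), whose control levels at 24 h are given above. The count was 3 (CDC45, MCM3 and RRM2) without the libraries below 5000000 alignments. In that setting 718 of all 13862 rows were called, against 896 with every library. It was 6 or 7 without replicate 1 or 2 of 0 h, replicate 1 of 24 h, replicate 1 of 48 h or replicate 3 of 60 h. The treated effect at 24 h was measured against controls that were themselves at their highest mean level for MCM2, MCM5, PCNA, CDC45 and RRM2. The same held for RFC2, MCM3, MCM4, MCM10, FEN1, CDT1, POLE, PRIM2 and RPA1, and for no other gene of the set.

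Other genes of the S phase were read from a list of 42 replication-associated genes outside the set, of which 31 were tested. At 24 h 21 of them rose and none fell, when 7.5% of all rows were higher and 5.4% lower. The window of 48 to 72 h had 26 that rose, against 9.13% of all rows. In the last window, 96 to 168 h, 12 rose and 2 fell, against 9.65% of all rows higher and 7.11% lower. Without the libraries below 5000000 alignments 15 rose at 24 h, as did 236 of all 13862 rows. SLBP, which binds the ends of histone mRNAs, rose by 2.27 ± 0.26 at 24 h, and DTL, part of the ubiquitin ligase that removes CDT1 in S phase, by 1.29 ± 0.23. TK1, thymidine kinase, and DNA2, a nuclease and helicase of Okazaki fragment processing, rose by 0.98 ± 0.27 and 1.03 ± 0.25 at 24 h and by 1.83 ± 0.17 and 1.89 ± 0.15 over 48 to 72 h. Of 23 regulators of the G1 to S step, 7 rose at 24 h and 12 rose and 1 fell over 48 to 72 h. Of all rows 7.5% were higher at 24 h, and 9.13% were higher and 10.2% lower over 48 to 72 h. At 24 h 1 rose without the libraries below 5000000 alignments and 11 in the blocked fit, and over 48 to 72 h these counts were 14 and 13. In these settings 236 and 2151 of all 13862 rows were higher at 24 h, and 1627 and 2089 over 48 to 72 h. Among the regulators CCND3, a D-type cyclin, rose by 1.03 ± 0.27 and then 1.49 ± 0.16, and RBL1, a pocket protein that binds E2F factors, by 1.16 ± 0.19 and 0.73 ± 0.12. E2F1 and E2F8 were not called at 24 h (limma adjusted p = 0.0846 and 0.0526) and rose over 48 to 72 h (1.45 ± 0.19 and 1.23 ± 0.18).

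Mitosis genes were listed for comparison, and the difference between the lists was not tested. The all-row shares for these times and windows are those given above. Of 39 tested, 6 rose at 24 h (median difference 0.29), 39 over 48 to 72 h (1.82) and 38 over 96 to 168 h (0.93), and 22 were called at 120 h, when 3 of the 42 replication genes were. The growth of the effect between 24 h and 48 to 72 h was called for 30 of the 39 (median 1.55), against 2 of the 42 replication genes (median −0.07). Without the libraries below 5000000 alignments it was called for 2 of the 39 (median 1.23), with 4 of the 39 called at 24 h (median 0.63). The count at 120 h ran from 7 to 26 with each sample left out. CENPF, a kinetochore protein, was at −0.25 ± 0.36 at 24 h (limma adjusted p = 0.72) and at 2.21 ± 0.22 over 48 to 72 h. SMC2, a condensin subunit, was at 0.63 ± 0.30 (adjusted p = 0.167) and then at 2.22 ± 0.18. CENPF and SMC2, like the genes named from the S phase and G1 to S lists, were picked for large differences over 48 to 72 h. A smaller value at 24 h was thus favoured by the choice.

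Markers of other cells were read in the same way. The all-row shares for these windows are those given above. Of 9 supporting cell markers 1 rose at 24 h (median difference 0.09), 5 rose over 48 to 72 h, and 6 rose over the 11 times. Their summed level at 24 h was 1628 to 2419 RPKM in controls and 1942 to 2614 RPKM in treated samples, which overlapped. Over 48 to 72 h it was 821 to 2149 RPKM in controls and 1859 to 3089 RPKM in treated samples. Of 13 stromal markers 2 rose and 1 fell at 24 h, 3 rose and 1 fell over 48 to 72 h, and 9 rose and 1 fell over 96 to 168 h; their summed level was 1530 to 4616 RPKM in controls and 1248 to 4048 RPKM in treated samples. Of 13 leukocyte markers none rose and 2 fell at 24 h, 3 rose and 1 fell over 48 to 72 h, and 5 rose and 1 fell over 96 to 168 h, with a summed level of 80.5 to 210 RPKM in controls and 82.5 to 241 RPKM in treated samples. Among 5 endothelial markers none rose and 1 fell, and among 6 glial markers 1 rose, over the 11 times, against 18.5% of all rows higher and 12.5% lower. In each of these lists no tested marker was at 0 in all samples. Their part in the levels of the replication genes was not tested.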

How the data were processed

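Expression was measured by RNA-seq in 60 libraries of chicken utricles. The authors deposited 1 table of 17684 rows; per the submitters' processing notes TopHat 1.4.0 and Partek 6.6 were used, with no role given for either. For genome build, annotation and counting the entry is: not given in the sources used here. The deposited values were taken as RPKM: values times the alignments the table gives per library fell within 0.05 of whole steps, in over 90% of values, for 49.6% of 2384 rows checked, against 0% without that multiplication. No count test applied. Reads that close copies share could have been split between them.

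Libraries whose labels carry a decimal were read as repeats and averaged on the log scale, leaving 56 biological samples. The 13862 rows that reached 1 RPKM in 2 or more libraries were tested. A linear model of log2(RPKM + 0.5) with 22 group means was fitted with limma 3.58.1 (empirical Bayes with trend, R 4.3.3; 34 residual degrees of freedom), with Benjamini-Hochberg adjustment over all rows and calls under 0.05; it was checked on simulated data. All 42 symbols were found in the RefSeq table of GRCg7b, used for names only. The table has 2 further columns that correspond to no sample, and these stayed out.

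Same-numbered samples of both arms deviated together at the 5 times with 3 or 4 pairs, with r of 0.117 to 0.71, and were taken as pairs; the labels do not state a pairing. An alternative fit took the 28 pairs as blocks, which leaves 17 residual degrees of freedom. Other alternatives were pseudocounts of 0.1 and 1, no filter, trimmed-mean and quantile scaling, repeat libraries kept apart, libraries below 5000000 alignments left out, and each sample left out.

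Members and lists were chosen with earlier results of these data known. Values sample by sample, at selected times, are given for MCM2, MCM6, PCNA and, in each role, the gene with the largest difference over 48 to 72 h. RRM1, CDC7, GINS1 and other genes given beyond this rule were chosen after their values were seen. Genes of the machinery outside the 42 were not analysed here, apart from the lists named. No row of the deposited table carried the name RFC5, MCM7, CDC6 or PRIM1. The same held for POLA2, POLD1, POLD2, GINS2 and GINS4, so the set does not hold the whole machinery. No sequences are shown. Depth was 1486991 to 40331879 alignments per library, so low values in the shallow libraries are coarse.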

Additional observations from a re-analysis of the deposited data

Results flagged for a closer look

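Outliers were sought in the treated and the control group of 24 h, the only groups of 4 samples. Over 11 genes this gave 22 sets of 4 values. In 2 sets 1 sample stood apart from the rest: CDT1 in control replicate 3, at 12.4 RPKM, and RPA2 in treated replicate 1, at 42.04 RPKM. Chance sets apart a sample in about 1 set in 20 by this measure. Treatment effects of 5 of the 11 genes differed between time windows by limma's test of the difference. Apart from MCM2, MCM6 and PCNA, these genes had been picked for their large difference over 48 to 72 h. A smaller effect in other windows was thus favoured by the choice. Of all rows, 0.592% were called as having a smaller effect over 96 to 168 h than over 48 to 72 h. From 48 to 72 h to 96 to 168 h the log2 effect changed by −1.04 for MCM2 (adjusted p = 0.000579), −0.85 for PCNA (0.00079), −1.13 for CDC45 (0.00114), −1.06 for FEN1 (0.0129) and −0.71 for POLE (0.0383). From 24 h to 48 to 72 h that of CDC45 grew by 1.02 (adjusted p = 0.0285), and this call was lost without the libraries below 5000000 alignments. The POLE call above was lost when any of 19 single samples was left out and with a pseudocount of 0.1.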

How the results depend on the processing

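Counts of called genes moved by over 1.5 times as follows. With the replicate block the count was 1 at 0 h, 17 at 66 h, 16 at 96 h, 1 for 24 h minus 0 h, 6 for 48 to 72 h minus 24 h, 20 for 96 to 168 h minus 48 to 72 h and 11 for the F test of the effect; the block ended no call and otherwise only added calls. With repeat libraries as separate samples it was 2 at 0 h, 5 at 120 h, 2 for 24 h minus 0 h and 13 for the F test of the effect. Of all 13862 rows that setting called 767 higher at 0 h and 553 at 120 h. It called 16 higher for 24 h minus 0 h and 568 in the F test. Without the libraries below 5000000 alignments the count of genes was 15 at 24 h, 0 at 168 h, 0 for 48 to 72 h minus 24 h and 3 for the F test of controls. The all-row counts there were 236 higher at 24 h, 97 higher at 168 h and 718 for the F test of controls. For 48 to 72 h minus 24 h they were 8 higher and 11 lower. A pseudocount of 0.1 gave 6 and quantile normalization 18 for 96 to 168 h minus 48 to 72 h, and a pseudocount of 1 gave 8 and quantile normalization 11 for the F test of the effect. Of all rows, the pseudocount of 0.1 called 29 lower and quantile normalization 132 for that change. The F test called 228 rows with a pseudocount of 1 and 243 under quantile normalization. The cause was not tested. The median of all rows at 24 h was 0.13 as deposited and 0.04 and 0.06 under trimmed-mean and quantile scaling. Under these scalings 24 and 22 genes were called at 24 h, with 562 and 571 of all rows higher.

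With each sample left out in turn (a lone sample was assumed to vary like the other groups) the counts ran from 30 to 35 over 11 times, 27 to 32 over 48 to 72 h, 9 to 17 over 96 to 168 h, 0 to 1 at 0 h, 20 to 30 at 24 h, 1 to 17 at 48 h, 2 to 12 at 54 h, 4 to 18 at 60 h, 2 to 12 at 66 h, 10 to 18 at 72 h, 4 to 13 at 96 h, 1 to 3 at 120 h, 0 to 1 at 144 h and 0 to 1 at 168 h. They ran from 0 to 6 for 48 to 72 h minus 24 h, 7 to 14 for 96 to 168 h minus 48 to 72 h, 5 to 8 for the F test of the effect and 6 to 13 for that of controls.

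Some values that were not called changed sign: PCNA over 96 to 168 h was −0.0384 and RPA2 −0.00204 under trimmed-mean scaling, and with each sample left out they ran from −0.0578 to 0.0555 and from −0.0353 to 0.116. Without the libraries below 5000000 alignments DBF4B at 24 h was 0.24 and RRM1 at 24 h 0.0284, and with each sample left out RRM1 ran from −0.193 to 0.150. No called value changed sign in any setting.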
